A study of Mus musculus with 72 samples.

Results

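Immediate early genes are genes that a stimulus can switch on within minutes because the proteins that turn them on are already present in the cell. Here they are represented by 10 genes that are widely used to read recent activity of neurons, Fos, Fosb, Junb, Egr1, Egr2, Npas4, Nr4a1, Arc, Dusp1 and Sik1. They were taken from a list of activity genes and matched by Ensembl identifier to the symbols that accompany the deposited data. All 10 were found in each of the 10 count tables, among 21749 genes that every table lists and 55401 that any table lists.

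The study sequenced total RNA from the hypothalamus of adult B6 mice, C57 in the library names. It asked whether the loss of any of 5 conserved noncoding elements tied to hibernation alters gene expression. Each of the 5 lines, E1 to E5, carried a knockout (KO) of 1 element and came with wild type (WT) mice of its own, and both genotypes were sampled after 72 h without food but with water (Fasted) and with food (Fed). The 72 libraries thus form 20 groups, namely Fasted KO, Fasted WT, Fed KO and Fed WT in each line. Of these groups 12 hold 4 libraries and 8 hold 3, the smaller ones being all 4 groups of E3, both Fasted groups of E2, Fasted E1 WT and Fasted E4 KO. The elements are noncoding, so no gene count checks the knockout labels. The labels used here give no age beyond adult, no sequence of the elements, no number of founder animals per knockout and no statement of which libraries come from separate animals.

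Calcium entry and growth factor signals reach these genes through kinases that phosphorylate CREB and the partners of serum response factor, factors that sit at the promoters before the stimulus. In the hypothalamus, Fos is a standard marker of neurons that respond to feeding, fasting, stress and hormones. Fos, Fosb and Junb encode subunits of the AP-1 transcription factor, Egr1 and Egr2 encode zinc finger transcription factors, and Nr4a1 encodes an orphan nuclear receptor. Npas4 encodes a transcription factor that is induced by calcium in neurons in particular. Arc encodes an effector at synapses that takes part in the removal of AMPA receptors. Dusp1 encodes a phosphatase that switches off MAP kinases, and Sik1 encodes a kinase that restrains the CREB coactivators, so both act as brakes on the signals that induce the group.

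Promoter sequences are shown for 4 of the genes because Fos, Npas4 and Nr4a1 were lower with fasting in E3 whereas Dusp1 was higher with fasting in E1, as described further on. Each line holds the 250 bases before a RefSeq transcription start in GRCm38.p6, 5′ to 3′ on the strand of the gene, and capitals mark TGACG or its reverse complement CGTCA, the core of the element that CREB binds, searched on both strands.
Fos, chr12:85473640-85473889, plus strand: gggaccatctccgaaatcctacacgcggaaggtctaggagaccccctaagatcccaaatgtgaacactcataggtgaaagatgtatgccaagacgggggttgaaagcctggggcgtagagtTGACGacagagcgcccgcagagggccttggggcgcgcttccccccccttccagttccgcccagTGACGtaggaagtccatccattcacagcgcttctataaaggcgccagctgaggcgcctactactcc
Npas4, chr19:4989972-4990221, minus strand: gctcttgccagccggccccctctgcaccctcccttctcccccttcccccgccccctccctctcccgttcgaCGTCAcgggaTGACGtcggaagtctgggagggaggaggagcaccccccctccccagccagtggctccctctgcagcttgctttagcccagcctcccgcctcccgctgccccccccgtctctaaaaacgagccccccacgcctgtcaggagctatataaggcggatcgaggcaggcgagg
Nr4a1, chr15:101266596-101266845, plus strand: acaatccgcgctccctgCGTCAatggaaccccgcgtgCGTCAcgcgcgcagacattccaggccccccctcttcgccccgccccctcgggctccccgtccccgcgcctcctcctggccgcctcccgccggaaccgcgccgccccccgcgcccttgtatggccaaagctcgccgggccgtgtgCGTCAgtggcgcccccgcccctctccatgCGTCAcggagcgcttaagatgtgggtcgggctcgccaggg
Dusp1, chr17:26508473-26508722, minus strand: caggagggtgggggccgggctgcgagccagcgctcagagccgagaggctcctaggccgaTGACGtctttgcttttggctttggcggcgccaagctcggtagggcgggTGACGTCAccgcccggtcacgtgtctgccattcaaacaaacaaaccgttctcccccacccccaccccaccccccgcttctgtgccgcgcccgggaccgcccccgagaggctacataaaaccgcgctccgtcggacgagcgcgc

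The Fos window holds 2 such motifs, the Npas4 window 2, the Nr4a1 window 4 and the Dusp1 window 3, of which a pair overlaps to form the full palindrome TGACGTCA. In Fos the motif nearest the start begins at base -66, counted back from the start, and in Nr4a1 it begins at base -40. Windows were found for 7 of the 10 genes, and all 7 genes had at least 1 motif in at least 1 window; Arc, Egr1 and Sik1 had no entry. Of 32841 RefSeq promoter windows of this length, 17.8% hold a motif, 3.9% hold 2 or more and 1.55% hold the palindrome. Of the 7 genes, 5 had a window with 2 or more motifs. The genes were counted by any of their 11 windows, several of which belong to Egr2 and overlap, whereas the shares are per window. The CArG box, to which serum response factor binds, was searched too and was found for Egr2 alone of the 7 and in 1.47% of all windows. These matches describe letters and not binding, and no match tells only that the letters are missing from that window. Fos lies at chr12:85473890-85477273 in the annotation, so its window ends 1 base before the gene, whereas the Nr4a1 window lies inside the annotated span of that gene, chr15:101254269-101274795, and the Dusp1 window inside chr17:26505590-26562128. Npas4 is annotated at chr19:4984355-4990316, which also covers its window.

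Depth ranged from 5517552 to 39999368 counts per library with a median of 20890991, so a gene of few reads is measured less precisely in the shallower libraries. Levels are given as scaled CPM, which is CPM corrected by a TMM factor computed once over all libraries of all tables. All 14 listed hypothalamus markers, among them Agrp, Hcrt and Oxt, were above 0 in every library. Transcripts of other tissues were taken to stand out where such a list lay above 5 times its median and above 200 scaled CPM. A library with over 25% of its counts in 10 genes was grouped with these. That gave 13 libraries: pituitary transcripts in all 3 Fasted E2 WT libraries, in Fasted E4 KO replicate 3 and in replicate 3 of both Fasted E5 groups, choroid plexus in 4, and liver with fat, muscle, or a few dominant genes in 1 each. Liver transcripts below the limit remained, as in Fasted E4 KO replicate 2 at 175 scaled CPM and Fasted E2 KO replicate 3 at 118, against a median of 2.53. Fits without the 13 libraries are thus not free of other tissues. The E3 libraries had 77.9 to 155 scaled CPM of the Y-linked gene Ddx3y and the 60 others at most 0.315. By this gene the E3 libraries read as male and those of the other lines as female, while the labels used here give no sex. E3 thus stands apart from the other lines in sex as well as in its element. Fasted and Fed libraries shared a batch number in the labels only in E1 and E3.

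All 10 genes were counted in every library, from 3 reads for Egr2 in its lowest library to 2021 for Egr1 in its highest. Per kb of exon, the order of the median level over 72 libraries was Egr1 at 8.01 scaled CPM per kb, Sik1 at 6.40, Nr4a1 at 5.94, Fos at 5.72, Dusp1 at 5.29, Junb at 5.06, Arc at 4.14, Npas4 at 1.53, Fosb at 0.692 and Egr2 at 0.357. The first 7 exchanged places between libraries, with ranks between 1 and 7, while Npas4 ranked 8 or 9, Fosb 8 to 10 and Egr2 9 or 10. Levels of a single gene spanned the least in Sik1, at 19.6 to 52.8 scaled CPM, a 2.69-fold range. They spanned the most in Egr2, at 0.177 to 3.76 scaled CPM, a 21.2-fold range that includes libraries with few reads.

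Among the 20 groups, the Fasted E5 KO group had the lowest mean for 6 of the genes, Fos, Fosb, Egr1, Egr2, Npas4 and Nr4a1. Fos, for example, averaged 6.44 scaled CPM there and had its highest mean, 23.7 scaled CPM, in Fed E4 KO. The Fasted E2 WT group had the highest means of Junb, Egr2, Nr4a1 and Dusp1, and it is the group in which every library carried pituitary transcripts (a summed pituitary list of 1440 to 11988 scaled CPM, against a median of 139 over all libraries). Fed E3 KO had the highest means of Egr1, Arc and Npas4. When the 20 groups are put in order of their mean, the libraries of neighbouring groups overlapped in all 19 neighbour pairs for 8 genes, and in 18 of 19 for Arc and for Nr4a1, so the order is not resolved step by step. The differences between lines cannot be told apart from their batches.

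**Figure D1:**
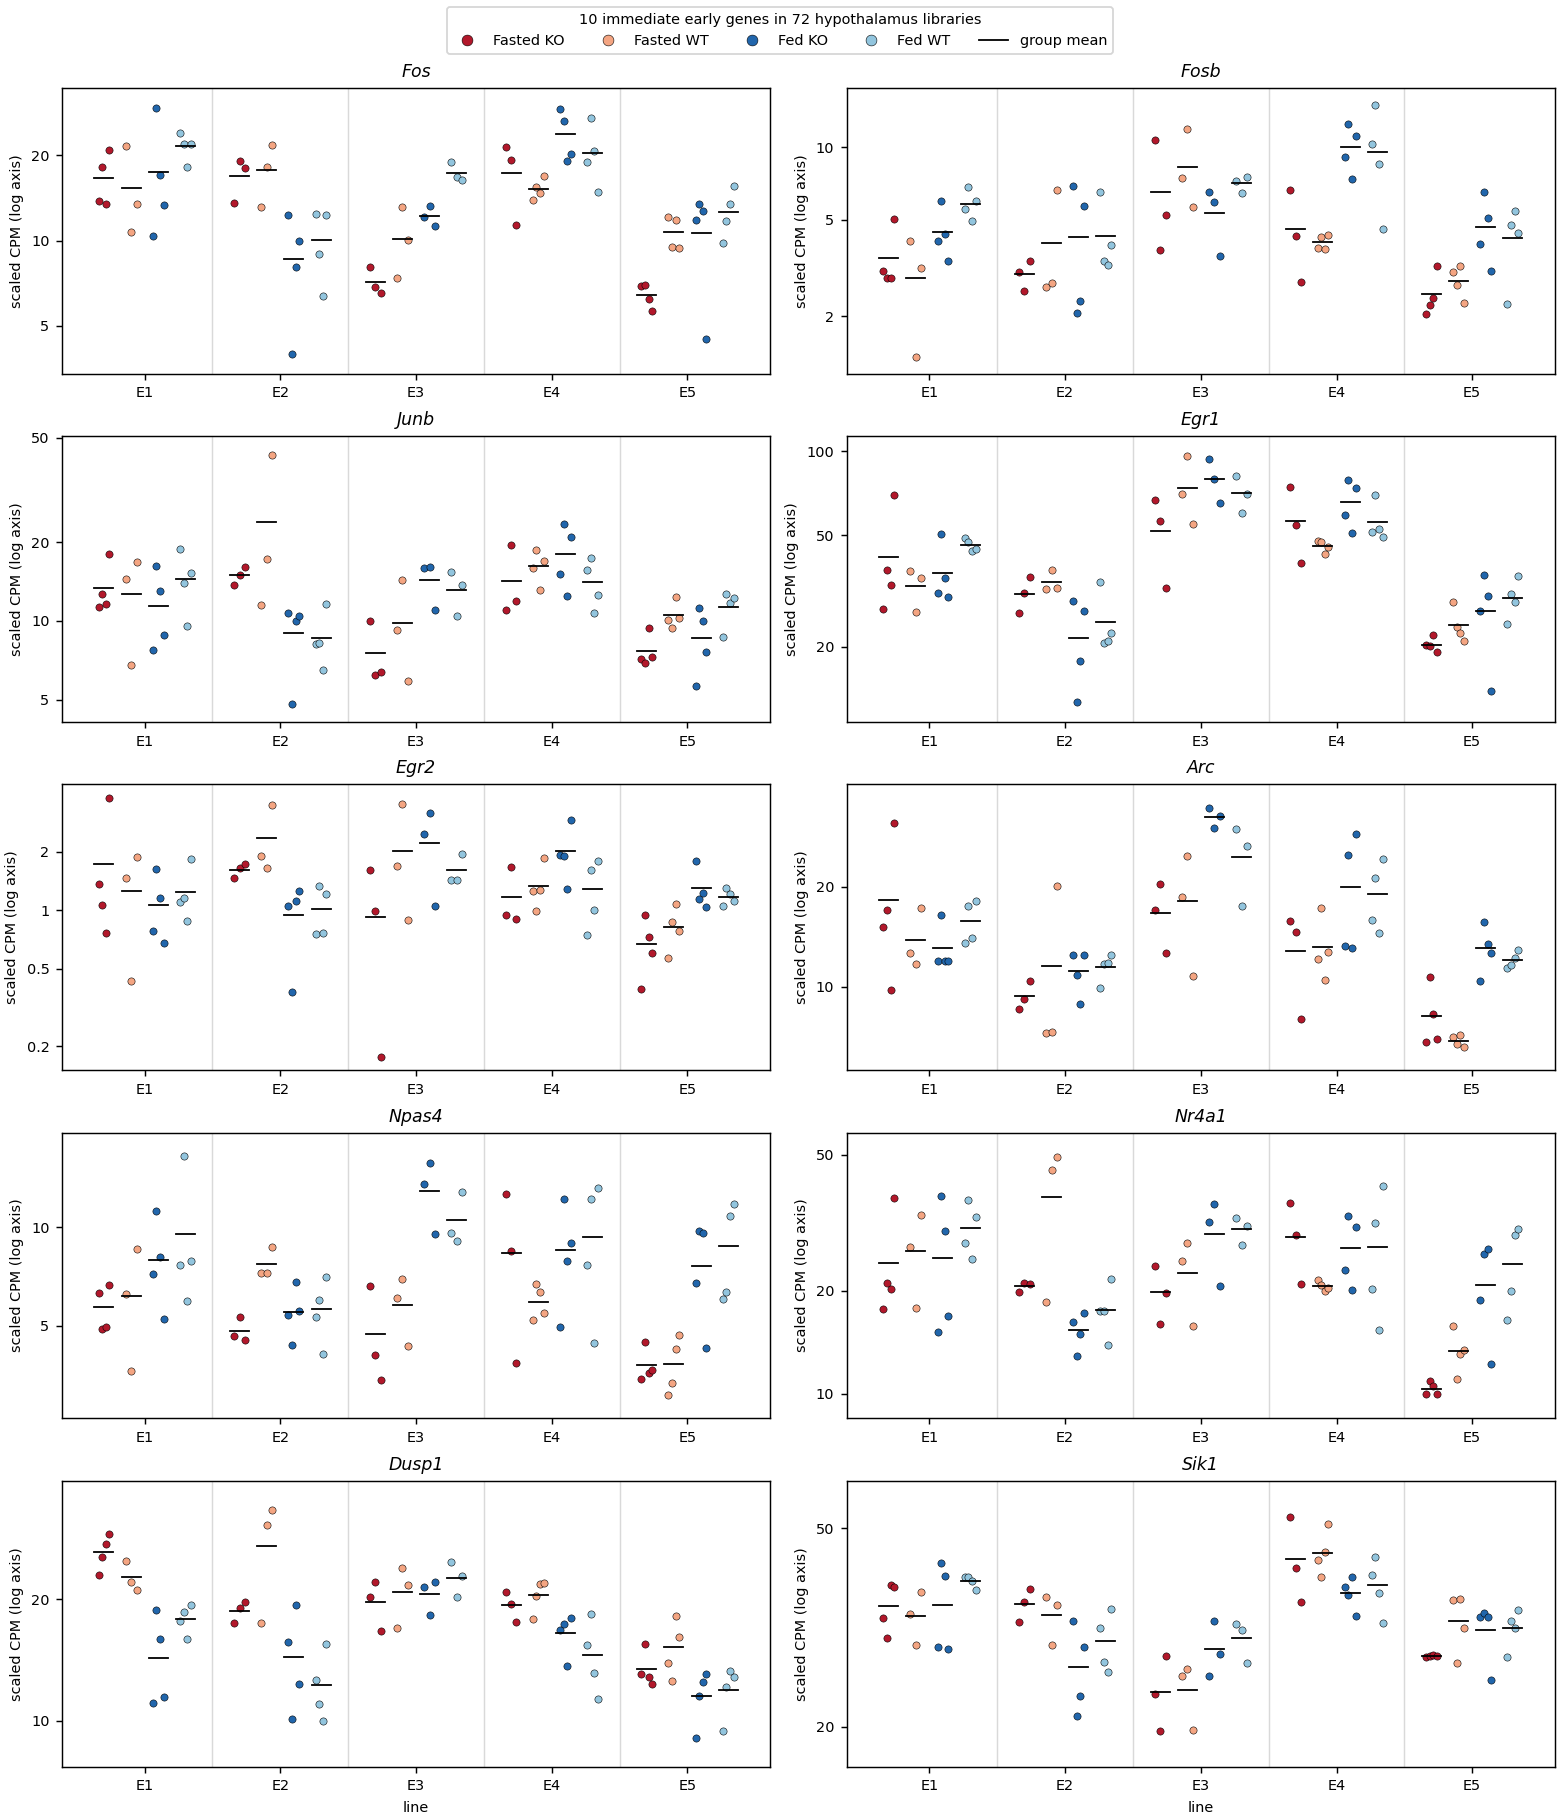
Levels of the 10 genes in scaled CPM (log axis) in each of the 72 libraries, by line (E1 to E5) and by group; each point is a library and each bar the mean of its group. The Fasted E5 KO points lie low for Fos (mean 6.44 scaled CPM), and within most groups the points of a gene are widely spread.

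Fasting was compared with feeding across E1 and E3, over 13 Fasted and 14 Fed libraries, with the 4 combinations of line and genotype in the model. Fos and Npas4 were lower in Fasted mice with the smallest p of the 10, Sik1 was also lower, and Dusp1 was higher. The remaining 6 genes did not pass the test: on the log2 scale Nr4a1 was at -0.30, Junb at -0.28, Arc and Fosb at -0.23, Egr1 at -0.20 and Egr2 at 0.00, with edgeR adjusted p between 0.11 and 0.99. In total 4 of the 10 genes were called with edgeR, 1 higher and 3 lower, in a comparison that called 33.1% of 15268 genes tested, 17.9% higher and 15.3% lower, so the number called is close to that of genes at large. The median log2 change of the 10 was -0.23, and that of all genes 0.02.

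Npas4 was at 3.41, 5.19 and 6.92 scaled CPM (lowest, median and highest) in 6 Fasted E3 libraries, against 9.04, 11.2 and 15.7 scaled CPM in 6 Fed E3 libraries. Every Fasted library of E3 lay below every Fed one, as did those of 1.76% of genes in that comparison. In E1 it was at 3.64, 6.26 and 8.55 scaled CPM in 7 Fasted libraries, against 5.25, 7.78 and 16.5 scaled CPM in 8 Fed libraries, and these ranges overlap. In bulk RNA, less RNA per cell and fewer cells that express a gene cannot be told apart. Over both lines Npas4 fell by 0.82 on the log2 scale (SE 0.17, 95% interval -1.17 to -0.48, edgeR adjusted p = 0.00064), a change that also reached the threshold in each of the 27 fits that left out 1 library.

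Fos was at 6.55, 7.73 and 13.1 scaled CPM in the Fasted E3 libraries, against 11.3, 14.8 and 18.97 scaled CPM in the Fed ones. In E1 it was at 10.7, 13.8 and 21.7 scaled CPM in Fasted libraries, against 10.4, 20.1 and 29.4 scaled CPM in Fed libraries. The groups overlapped in both lines, by few libraries in E3 and nearly over the whole range in E1. Over both lines Fos fell by 0.49 on the log2 scale (SE 0.14, 95% interval -0.77 to -0.21, edgeR adjusted p = 0.0076), and it passed in all 27 fits with 1 library left out.

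Dusp1 was at 21.1, 24.9 and 29.1 scaled CPM in Fasted E1 libraries, against 11.04, 16.8 and 19.3 scaled CPM in Fed E1 libraries. All Fasted E1 libraries were above all Fed ones, as were those of 4.73% of genes. In E3 the groups overlapped almost fully, with 16.7, 20.9 and 23.9 scaled CPM in Fasted libraries, against 18.3, 21.7 and 24.7 scaled CPM in Fed libraries. Over both lines Dusp1 rose by 0.30 on the log2 scale (SE 0.11, 95% interval 0.09 to 0.52, edgeR adjusted p = 0.029). It was called in 23 of the 27 fits that left out 1 library and in 4 of the 7 other alternatives. With sums of brain region markers as covariates, described with E1 below, it was at 0.12 (edgeR adjusted p = 0.50), and it was not called in either genotype alone.

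Sik1 had the smallest of the 4 changes, with 19.6, 24.3 and 27.7 scaled CPM in Fasted E3 libraries, against 25.3, 29.6 and 32.7 scaled CPM in Fed E3 libraries. In E1 it was at 29.1, 33.6 and 38.5 scaled CPM in Fasted libraries, against 28.6, 39.5 and 42.6 scaled CPM in Fed ones. Ranges overlapped in both lines, and over both lines Sik1 fell by 0.20 on the log2 scale (SE 0.07, 95% interval -0.35 to -0.05, edgeR adjusted p = 0.036), and it was called in 17 of those 27 fits and in 4 of the 7 other alternatives.

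The number of members called rested on single libraries. Over the fits that left out 1 library, edgeR called 4461 to 5552 genes in all, against 5060 with every library. Without E1 Fasted WT replicate 1 only 2 were called, and without E1 Fasted KO replicate 4 there were 7, the added ones being Egr1, Arc and Nr4a1. That last library had the highest sum of cortex and hippocampus markers among the E1 libraries, 465 scaled CPM against 111 to 344 in the other Fasted and 79.8 to 125 in the Fed E1 libraries; its part in the calls was not tested. In WT mice alone 2 of the 10 were called, where 11.03% of 14847 genes were, and in KO mice alone 1, where 20.1% of 14956 genes were: Fos missed the threshold in KO mice (edgeR adjusted p = 0.18) and Npas4 in WT mice (edgeR adjusted p = 0.057).

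Within E3 alone, 4 genes were lower in Fasted mice and 0 higher, where edgeR called 11.5% of 14860 genes, 4.54% lower and 6.93% higher. Npas4 fell by 1.17 (edgeR adjusted p = 0.0045), Fos by 0.78 (0.0033), Arc by 0.71 (0.031) and Nr4a1 by 0.51 (0.049) on the log2 scale. Arc was at 10.8, 17.9 and 24.8 scaled CPM in Fasted E3 libraries, against 17.5, 30.1 and 34.6 scaled CPM in Fed E3 libraries. Nr4a1 was at 15.8, 21.6 and 27.5 scaled CPM in Fasted ones, against 20.6, 31.3 and 35.9 scaled CPM in Fed ones. Both genes overlapped between feeding states. Junb stood next to the threshold at -0.68 (edgeR adjusted p = 0.051) and Sik1 at -0.32 (0.061).

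Fos and Npas4 were called in E3 in all 12 fits that left out 1 library, Arc in 7 and Nr4a1 in 2. The count was 2 without E3 Fed KO replicate 1, E3 Fed WT replicate 1, E3 Fed WT replicate 3, E3 Fasted KO replicate 1 or E3 Fasted WT replicate 3, each taken singly, and also 2 without the 3 E3 libraries that carried choroid plexus transcripts. That last fit called 5.39% of 14881 genes. The summed hypothalamus list was at 217 to 380 scaled CPM in Fasted E3 libraries, against 180 to 248 scaled CPM in Fed ones, with overlap through 1 Fasted library. Of 14 marker lists, that of endothelium alone separated the feeding states in E3, at 77.0 to 109 scaled CPM in Fasted libraries, against 112 to 211 scaled CPM in Fed ones. The part of either list in the result was not tested.

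Within E1 alone, edgeR called 2 of the 10 genes, where it called 40% of 15018 genes, 20.5% higher and 19.4% lower. Dusp1 rose by 0.61 (SE 0.12, edgeR adjusted p = 0.0006) and Fosb fell by 0.67 (SE 0.21, edgeR adjusted p = 0.015) on the log2 scale. Fosb was at 1.36, 3.07 and 5.05 scaled CPM in Fasted E1 libraries, against 3.39, 5.27 and 6.85 scaled CPM in Fed ones, with overlap. Npas4 stood at -0.56 (edgeR adjusted p = 0.051). Leaving out E1 Fasted KO replicate 4 gave 4 called genes of the 10, where fits that left out 1 library called 5238 to 7061 genes in all. In E1 the brain region lists moved with feeding: the cortex and hippocampus list was at 111 to 465 scaled CPM in Fasted libraries, against 79.8 to 125 scaled CPM in Fed ones, and the striatum list at 433 to 726 against 585 to 831 scaled CPM. With both lists in the model as covariates, edgeR called 0 of the 10 and 1 gene in all. The Dusp1 change was then 0.14 (edgeR adjusted p = 0.94) and the estimate for Npas4 turned positive, at 0.16. Because the lists moved with feeding, this model cannot tell region content from feeding, and a lost call decides neither.

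The response to fasting was then compared between the lines, as the change in E3 minus the change in E1. Dusp1 and Arc differed, both lower in E3, where edgeR called 17% of 15350 genes, 8.53% lower and 8.46% higher. For Dusp1 the difference was -0.71 (SE 0.17, 95% interval -1.05 to -0.37, edgeR adjusted p = 0.0049), with a change of -0.10 in E3 and 0.61 in E1. It was called without any single library (27 of 27 fits) and in the 5 other alternatives, including the model with region lists. For Arc the difference was -0.88 (SE 0.30, 95% interval -1.49 to -0.26, edgeR adjusted p = 0.043), with -0.71 in E3 and 0.16 in E1.

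The Arc difference was called in 11 of the 27 fits that left out 1 library and was lost with region covariates and without the libraries that carried other tissues. The libraries whose removal left Dusp1 as the only called gene were E1 Fed WT replicates 1 and 3, E1 Fed KO replicates 1 and 3, E1 Fasted WT replicate 3, E1 Fasted KO replicate 2, E3 Fed KO replicates 1, 2 and 3, E3 Fed WT replicates 1 and 3 and E3 Fasted KO replicate 1. Removal of E1 Fasted WT replicate 2, E3 Fasted KO replicate 2 or E3 Fasted WT replicate 2 gave 3 called genes. Fosb differed the other way without passing, at 0.93 (edgeR adjusted p = 0.059), with 0.25 in E3 and -0.67 in E1. Line, sex as read from Ddx3y and batch coincide here and cannot be told apart.

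**Figure D2:**
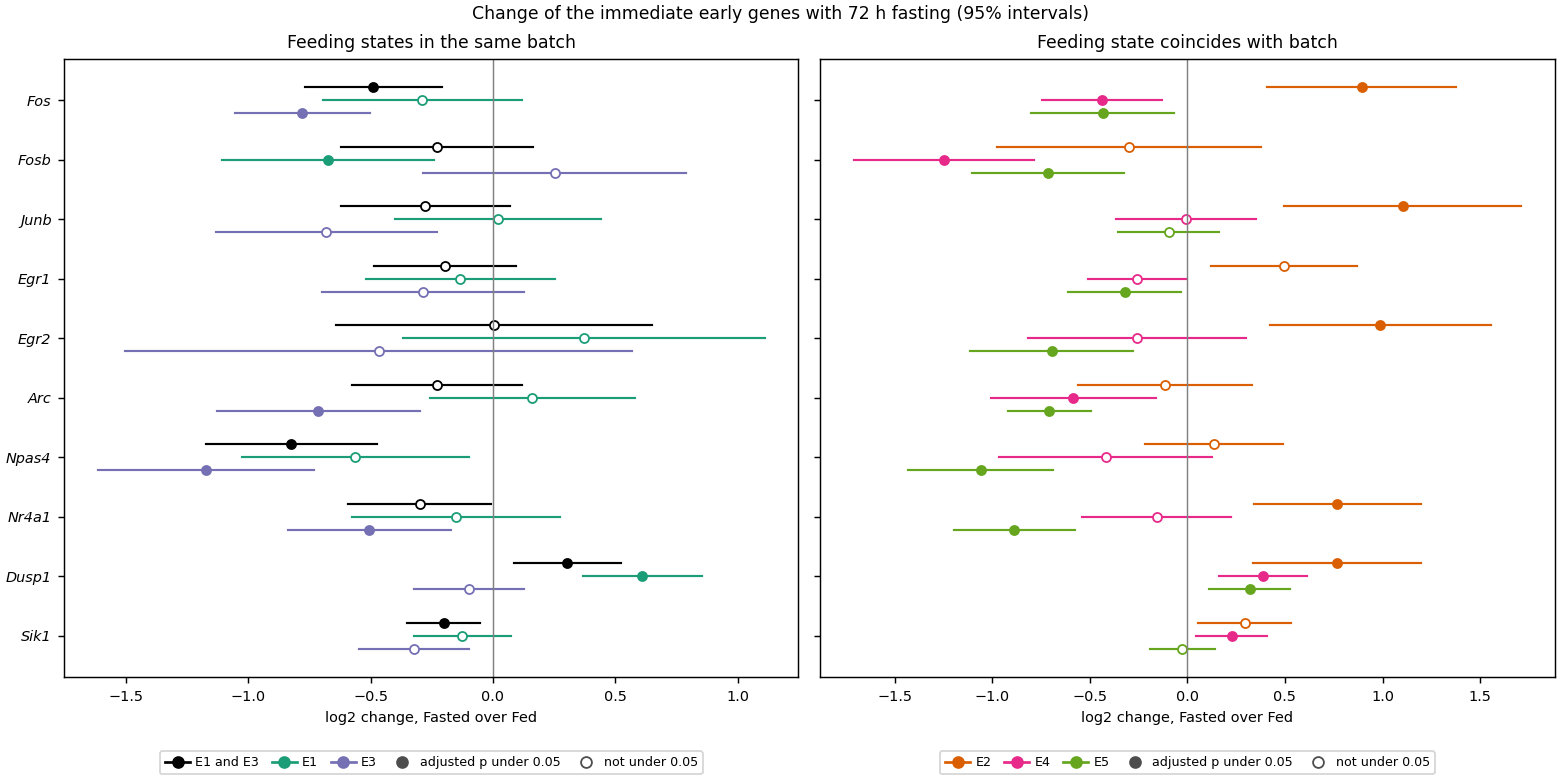
Log2 change of each gene, Fasted over Fed, with 95% intervals (x axis); filled points had an edgeR adjusted p under 0.05. On the left, where both feeding states shared a batch, Npas4 lies at -0.82 and Fos at -0.49 over E1 and E3; on the right, where feeding coincided with batch, E2 points lie to the right of E5 points for most genes.

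In E2, E4 and E5 all Fasted libraries had another batch number than all Fed ones, so feeding and batch cannot be told apart and the values below describe both at once. The 3 lines did not give 1 pattern. In E2, 5 genes were higher in the Fasted libraries and 0 lower, where edgeR called 18.9% of 19751 genes, 9.57% higher and 9.31% lower. In E5, 7 were lower and 1 higher, where it called 62.9% of 18797 genes, 32.1% lower and 30.8% higher. In E4, 3 were lower and 2 higher, where it called 48.5% of 18768 genes, 23.5% lower and 25% higher.

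In E2 the genes were Junb at 1.10, Egr2 at 0.99, Fos at 0.89 and Nr4a1 and Dusp1 at 0.77 on the log2 scale, with edgeR adjusted p between 0.015 and 0.019. Fos was at 13.2, 18.1 and 21.7 scaled CPM in 6 Fasted E2 libraries, against 3.99, 9.50 and 12.4 scaled CPM in 8 Fed ones. All Fasted libraries were above all Fed ones for Fos and for Egr2, as they were for 3.14% of genes. Junb was at 11.5, 15.6 and 42.9 scaled CPM in Fasted E2 libraries, against 4.85, 9.13 and 11.6 scaled CPM in Fed ones, and the ranges touched. The pituitary list reached 1440 to 11988 scaled CPM in the 3 Fasted WT libraries, 135 to 162 scaled CPM in the 3 Fasted KO ones and 107 to 191 scaled CPM in the Fed ones. Without the libraries that carried other tissues, edgeR called 0 of the 10 genes and 11.6% of 19697, with Fos at 0.96 (edgeR adjusted p = 0.077), from a Fasted group that then held KO libraries alone.

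In E5 the largest changes were Npas4, which fell by 1.06, Nr4a1, which fell by 0.89, Fosb and Arc, which fell by 0.71, and Egr2, which fell by 0.70 on the log2 scale, all with edgeR adjusted p of 0.0053 or less. Arc was at 6.59, 7.002 and 10.7 scaled CPM in 8 Fasted E5 libraries, against 10.4, 12.4 and 15.7 scaled CPM in 8 Fed ones, overlapping through 1 Fasted library. Npas4 was at 3.06, 3.63 and 4.67 scaled CPM in the Fasted ones, against 4.28, 8.18 and 11.7 scaled CPM in the Fed ones. Fos fell by 0.43 and Egr1 by 0.32 on the log2 scale (edgeR adjusted p = 0.038 and 0.0495), and Dusp1 rose by 0.32 (edgeR adjusted p = 0.0089). Egr1 was called in 0 of the 5 other alternatives and in 3 of the 16 fits that left out 1 library, and Fos in 5 of those 16. RLE normalization, DESeq2, no filter and the fit without other tissues thus each gave 7 members, where they called 36.9% to 62.7% of genes.

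Several marker lists moved with feeding state in E5. The hypothalamus list was at 659 to 1803 scaled CPM in Fasted E5 libraries, against 436.9 to 615 scaled CPM in Fed ones, the microglia list at 161 to 232 against 104 to 151 scaled CPM, and the choroid plexus list at 38.6 to 3287 against 22.6 to 36.7 scaled CPM, all 3 without overlap. The highest Fasted values of the hypothalamus list, 1803 and 1032 scaled CPM, were in KO and WT replicate 3, which carried pituitary transcripts. In the other Fasted E5 libraries that list was at 659 to 860 scaled CPM. The part of these 3 lists in the result was not tested. The striatum list was at 446 to 565 scaled CPM in Fasted E5 libraries, against 537 to 1163 scaled CPM in Fed ones. With region lists as covariates edgeR called 0 of the 10 and 6.06% of 20142 genes, with Fos, Egr1, Npas4 and Nr4a1 on the positive side. As the striatum list moved with feeding state too, this fit cannot tell region content from feeding or batch.

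In E4, Fosb fell by 1.25 on the log2 scale (SE 0.22, edgeR adjusted p = 0.00022), at 2.77, 4.24 and 6.63 scaled CPM in 7 Fasted libraries, against 4.58, 9.68 and 14.9 scaled CPM in 8 Fed ones. Its ranges overlapped. Fos fell by 0.44 and Arc by 0.58, while Dusp1 rose by 0.39 and Sik1 by 0.23, with edgeR adjusted p between 0.0068 and 0.037. Fos and Fosb were called in each of the 5 alternatives of the model, including the fit with region lists. Arc was called in 3 of them, and with region lists it was at -0.19 (edgeR adjusted p = 0.62). Dusp1 was called in 4, and with region lists it was at 0.23 (edgeR adjusted p = 0.25). Sik1 was called in 2 of them and in 7 of the 15 fits that left out 1 library, and with region lists it was at 0.02. The pituitary list was at 176 to 6757 scaled CPM in Fasted E4 libraries, against 90.0 to 140 scaled CPM in Fed ones, without overlap, and its part in the result was not tested. The count without the libraries with other tissues was 3, where edgeR called 49.1% of 19276 genes.

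Set side by side, the log2 change of Dusp1 was 0.61 in E1, 0.77 in E2, 0.39 in E4, 0.32 in E5 and -0.10 in E3. With region lists as covariates it was 0.14 in E1, 0.57 in E2, 0.23 in E4 and 0.38 in E5 and was called in none of these 4 lines (edgeR adjusted p = 0.94, 0.054, 0.25 and 0.33). In E1 and E5 the region lists moved with feeding state, so the loss of a call there does not tell region content from feeding. Each line contributes libraries of its own, and in E2, E4 and E5 batch is part of the value.

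A single batch holds Fasted E5 and Fed E2 libraries, which differ in feeding and in line. Between them edgeR called 4 of the 10 genes lower in Fasted E5 and 0 higher, where it called 28.7% of 19000 genes, 14.4% in each direction. Fosb fell by 0.66, Arc by 0.56, Npas4 by 0.52 and Nr4a1 by 0.45 on the log2 scale, with edgeR adjusted p of 0.049, 0.0022, 0.010 and 0.0038. Arc, Npas4 and Nr4a1 were called in all 16 fits that left out 1 library and Fosb in 4, with an edgeR adjusted p of up to 0.11. Fos was at -0.13 (edgeR adjusted p = 0.65), with 5.65, 8.21 and 12.1 scaled CPM in Fasted E5 libraries, against 3.99, 9.50 and 12.4 scaled CPM in Fed E2 ones, almost the same range. These 16 libraries also enter the comparisons within E5 and E2 above.

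The main question of the study, KO against WT, was tested in each line and feeding state. edgeR called 0 of the 10 genes in all 10 comparisons, and 0% of all genes tested. At an unadjusted p under 0.05 stood 5 of the 10 in Fasted E5, where 7.32% of all genes did, 4 in Fed E1 (4.85%), 2 in Fed E3 (9.74%), 2 in Fasted E2 (7.47%) and 1 in Fasted E4 (9.39%). None of the 10 did in Fasted E1 (3.9% of all genes), Fed E2 (3.5%), Fasted E3 (17.5%), Fed E4 (5.23%) and Fed E5 (2.82%). DESeq2 called 1 of the 10 in a single comparison, Fos in Fasted E5, where it called 21 genes in all. Its largest counts over all genes were in Fasted E3, with 2.78% of 18140 genes, Fasted E2, with 117 genes, and Fed E3, with 104, none of them among the 10. Fitted changes ranged from -1.16, for Egr2 in Fasted E3, to 0.68, for Egr2 in Fed E4.

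In Fasted E5, Fos was at 6.89, 7.002, 6.22 and 5.65 scaled CPM in the KO libraries, against 12.1, 9.48, 11.9 and 9.41 scaled CPM in the WT libraries. Every KO library was below every WT library, for Junb and Nr4a1 as well, in a comparison where 1.79% of genes were lower without overlap. Junb was at 7.17, 6.92, 9.40 and 7.29 scaled CPM in KO, against 10.1, 9.44, 12.3 and 10.3 scaled CPM in WT. Nr4a1 was at 9.95, 10.9, 10.5 and 9.96 scaled CPM in KO, against 15.7, 11.05, 13.1 and 13.4 scaled CPM in WT. For both of these genes the highest KO library nearly met the lowest WT library, while for Fos a wider gap lay between them.

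The change of Fos was -0.74 on the log2 scale (SE 0.14, 95% interval -1.03 to -0.44, unadjusted p = 0.00013), yet its edgeR adjusted p was 0.67 over 18569 genes. With DESeq2 the adjusted p of Fos was 0.0048. Junb at -0.45, Nr4a1 at -0.37, Egr1 at -0.24 and Sik1 at -0.23 were at an unadjusted edgeR p under 0.05, while Arc went the other way, at 0.25. KO replicate 3 and WT replicate 3 had 19365 and 4720 scaled CPM of the pituitary list, and the remaining libraries of both groups 141 to 333 scaled CPM. In the pair with pituitary transcripts Fos was at 6.22 scaled CPM in KO and 11.9 scaled CPM in WT. WT replicate 1, the library with the highest Fos of the 8, had 3287 scaled CPM of the choroid plexus list, against a median of 34.9 over all libraries. The cortex and hippocampus list was at 80.9 to 88.5 scaled CPM in KO libraries, against 71.4 to 79.3 scaled CPM in WT libraries, without overlap, and its part in the result was not tested. Without these 3 libraries 2 of the 10 stood at an unadjusted p under 0.05, where 3.39% of all genes did, and Fos was at -0.52. In Fed E5 the same 3 genes overlapped between genotypes, and the interaction of genotype and feeding was not called for any of the 10 in E5.

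In Fed E3, Fos was at 12.1, 13.3 and 11.3 scaled CPM in KO libraries, against 18.97, 16.8 and 16.4 scaled CPM in WT libraries, again without overlap, where 7.5% of genes were lower without overlap. The change was -0.51 on the log2 scale (unadjusted p = 0.0020, edgeR adjusted p = 0.29). In the authors' deposited table, the log2 change of Fos in Fed E3, there WT over KO, was 0.51 with an unadjusted edgeR p of 0.00058. Its adjusted p there, from an adjustment that may differ from the one used here, was not under 0.05. That table rests on the same libraries. Arc lay the other way, with 34.6, 30.2 and 32.7 scaled CPM in KO, against 29.9, 17.5 and 26.5 scaled CPM in WT, a change of 0.39 (edgeR adjusted p = 0.51), where 7.74% of genes were higher without overlap. The striatal receptor gene Drd1 was at 13.3 to 59.7 scaled CPM in these KO libraries, against 5.17 to 15.3 scaled CPM in the WT libraries; its bearing on Arc was not tested. Of 14 marker lists 5 separated the genotypes in Fed E3. Lower in KO were endothelium, at 112 to 124 scaled CPM in KO libraries, against 166 to 211 scaled CPM in WT libraries, and red cells, at 1.24 to 5.19 against 7.91 to 39.7 scaled CPM. Higher in KO were astrocyte, at 4995 to 5536 scaled CPM in KO libraries, against 4446 to 4946 scaled CPM in WT libraries, choroid plexus, at 39.4 to 650.04 against 33.1 to 36.1 scaled CPM, and liver, at 2.80 to 3.32 against 2.01 to 2.17 scaled CPM. Their part in the values of Fos and Arc was not tested.

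In Fasted E2, Npas4 was at 4.64, 5.30 and 4.53 scaled CPM in KO libraries, against 7.23, 7.25 and 8.67 scaled CPM in WT libraries, without overlap, where 7.21% of genes were lower without overlap (log2 change -0.69, edgeR adjusted p = 0.66). Nr4a1 was at 19.8, 21.1 and 20.9 scaled CPM in KO, against 18.6, 45.2 and 49.2 scaled CPM in WT. WT replicate 1 thus lay with the KO libraries, and without it edgeR called Nr4a1 (adjusted p = 0.027), in a fit that called 71 of 20719 genes, 0.343%. All 3 of these WT libraries, and no KO library, carried pituitary transcripts, so genotype and pituitary content cannot be told apart in Fasted E2. The striatum list, at 440 to 547 scaled CPM in KO libraries, against 556 to 1305 scaled CPM in WT libraries, and those of astrocyte and oligodendrocyte, both higher in KO, also separated the genotypes, and their part was not tested.

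In Fed E1, all 10 changes were between -0.39 and -0.15, and Fosb, Egr1, Arc and Dusp1 were at an unadjusted p under 0.05 (edgeR adjusted p = 0.95 for each). Fos was at 10.4, 29.4, 17.1 and 13.4 scaled CPM in KO libraries, against 24.0, 21.9, 18.3 and 22.03 scaled CPM in WT libraries, so that the KO libraries held both the lowest and the highest value. The cortex and hippocampus list was at 79.8 to 86.1 scaled CPM in the KO libraries, against 86.3 to 125 scaled CPM in the WT libraries, and its part in these changes was not tested. In Fasted E4, Nr4a1 was at 0.40 (edgeR adjusted p = 0.50), with 36.0, 29.2 and 20.9 scaled CPM in KO and 21.5, 20.7, 19.99 and 20.4 scaled CPM in WT. The KO library at 36.0 is the shallowest of all 72, with 36.3% of its counts in 10 genes, and the one at 20.9 carried 6757 scaled CPM of the pituitary list; the part of either in the value was not tested. The authors' deposited table lists all 10 genes in 8 of the comparisons, those other than Fasted E2 and Fasted E5, and gives 0 of them an adjusted p under 0.05 in any. Of the 18055 to 18431 genes listed per comparison, it gives 1 to 43 such an adjusted p. Whether p was adjusted there as in the fits here was not checked. The same limit of 0.05 may thus not be equally strict in both. Fos and Egr2 in Fasted E3, Egr2 in Fed E4 and Junb in Fed E5 stood there at an unadjusted p under 0.05, unlike in the fits here.

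**Figure D3:**
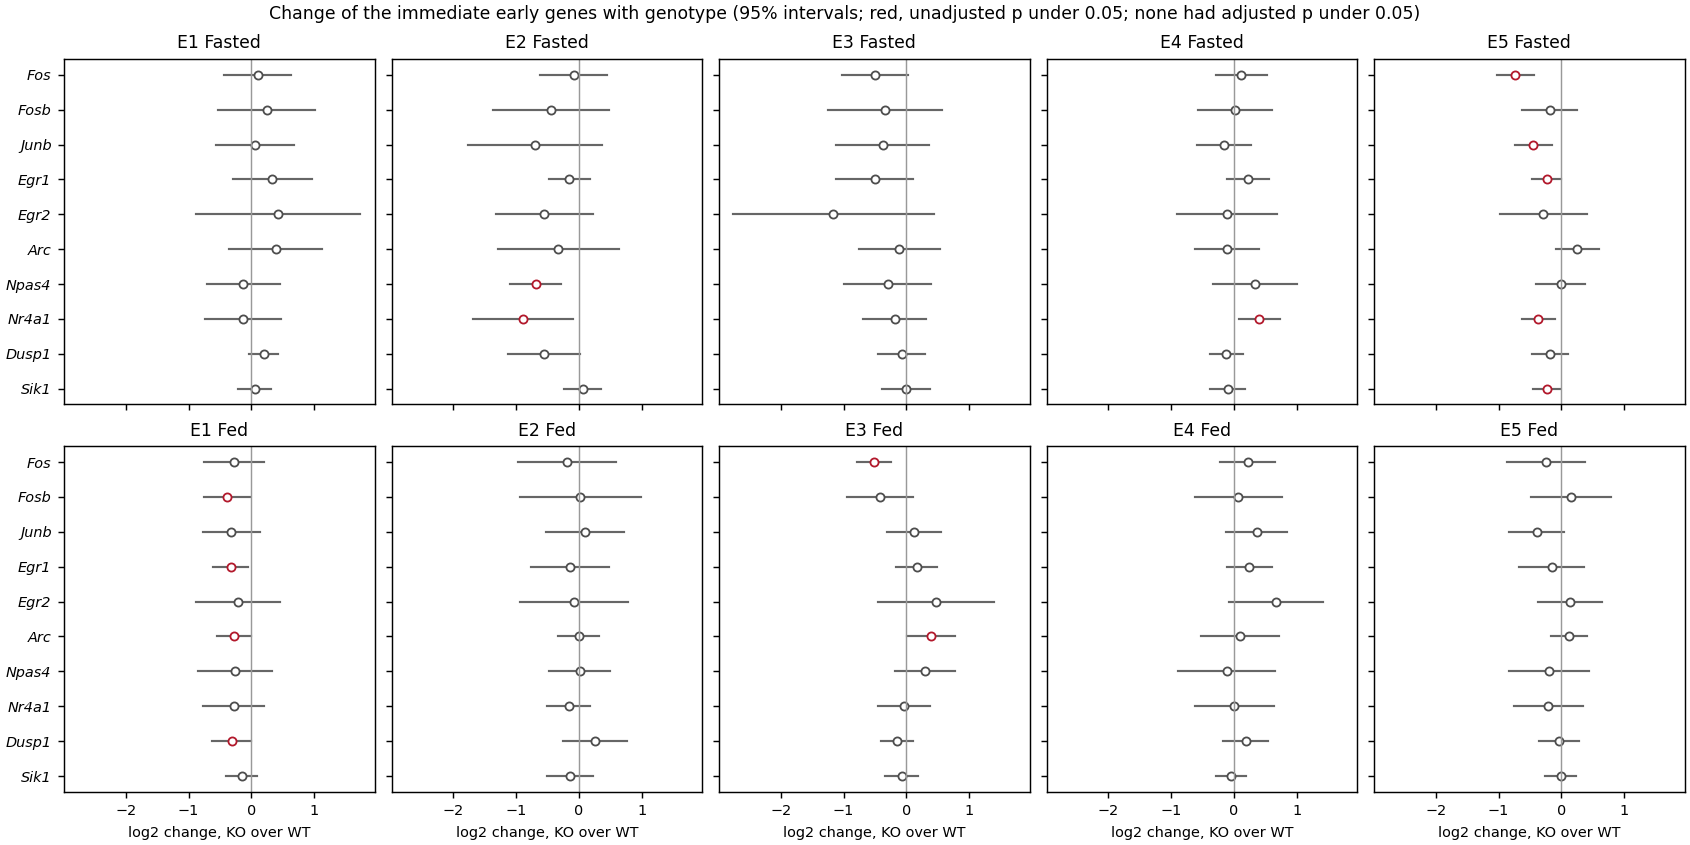
Log2 change of each gene, KO over WT (x axis), with 95% intervals in each line, Fasted above and Fed below; red points had an unadjusted p under 0.05 and none had an edgeR adjusted p under 0.05. Fos lies at -0.74 in Fasted E5 and at -0.51 in Fed E3, and most other intervals include 0.

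The interaction of genotype and feeding, the KO change in Fasted minus that in Fed mice, was called with edgeR for 0 of the 10 genes in each of the 5 lines, where it called 202 of 15033 genes in E3, 1.34%, and 0 in the other 4 lines. DESeq2 called 0 of the 10 as well. At an unadjusted p under 0.05 stood Dusp1 in E1, at 0.52, where 8.1% of all genes did. In E2 Npas4 and Dusp1 did, at -0.69 and -0.80, where 6.45% of all genes did. None of the 10 did in E3 (20.4% of all genes), E4 (11.2%) and E5 (5.95%). In E2, E4 and E5 a shift that a batch gives to KO and WT alike cancels in this term.

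The 10 genes also varied together among libraries of the same group. Their SD within groups, on the log2 scale, was 0.455 for Fosb, 0.448 for Egr2, 0.42 for Npas4, 0.41 for Junb, 0.39 for Nr4a1, 0.38 for Fos, 0.37 for Arc, 0.34 for Egr1, 0.24 for Dusp1 and 0.19 for Sik1, against a median of 0.19 over 13513 genes. Egr2, the gene of fewest reads, had 3 to 114 per library. Per library, the deviation from the mean of its own group was then set against that of Fos.

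All 9 other genes deviated with Fos. Pearson's r over 72 libraries was highest for Egr1 at 0.76 (Spearman's rho 0.73), then Fosb at 0.69 (0.67), Sik1 at 0.65 (0.59), Nr4a1 at 0.61 (0.61), Junb at 0.60 (0.61), Dusp1 at 0.57 (0.56), Npas4 at 0.46 (0.46) and Egr2 at 0.44 (0.43), and lowest for Arc at 0.32 (0.38). In a permutation test of 100000 draws within groups, p was between 1e-05, the smallest the draws allow, and 0.012, and after Benjamini-Hochberg adjustment over the 9 relations it was at most 0.012 for r and 0.0053 for rho. The 2 libraries farthest from the median of Fos were Fed E5 KO replicate 4 and Fed E2 KO replicate 2, both low. Without them r was between 0.36 for Arc and 0.70 for Egr1. Over the 45 pairs of the 10 genes r ranged from 0.15 to 0.76, with a median of 0.52, and the median r of 13503 genes with Fos was -0.00.

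The relation was not equal in all lines, each of which holds 1 or 2 batches. Egr1 had r with Fos of 0.76, 0.81, 0.53, 0.71 and 0.93 in E1 to E5, and Fosb 0.74, 0.75, 0.57, 0.80 and 0.61. Dusp1 had 0.83, 0.70, 0.60 and 0.71 in E1 to E4 and 0.01 in E5, Sik1 had 0.13 in E3, and Nr4a1 had 0.18 in E4 and 0.87 in E5. Arc stayed between 0.25 and 0.48 in all 5. Libraries of a group share handling, depth and dissection to an unknown degree, and the differences between lines were not tested.

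By the same measure, the genes most like Fos outside the group, among 13503 genes listed in all tables at a median of 1 scaled CPM or more, were Nr4a3 with r = 0.68, Fosl2 with 0.58, Siah2 with 0.57, Per1 with 0.56, Rrad with 0.51, Dnajb1 with 0.50, Nfil3 with 0.47, Zbed3 and Tob2 with 0.46 and Dad1 with 0.45. Nr4a3 is a nuclear receptor of the family of Nr4a1, Fosl2 an AP-1 subunit, Siah2 a ubiquitin ligase, Per1 a clock gene, Dnajb1 a heat shock protein and Nfil3 a transcription factor of the clock. Without the libraries that carried other tissues, r of these genes was 0.43 to 0.69 over the 58 libraries whose groups kept at least 2.

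**Figure D4:**
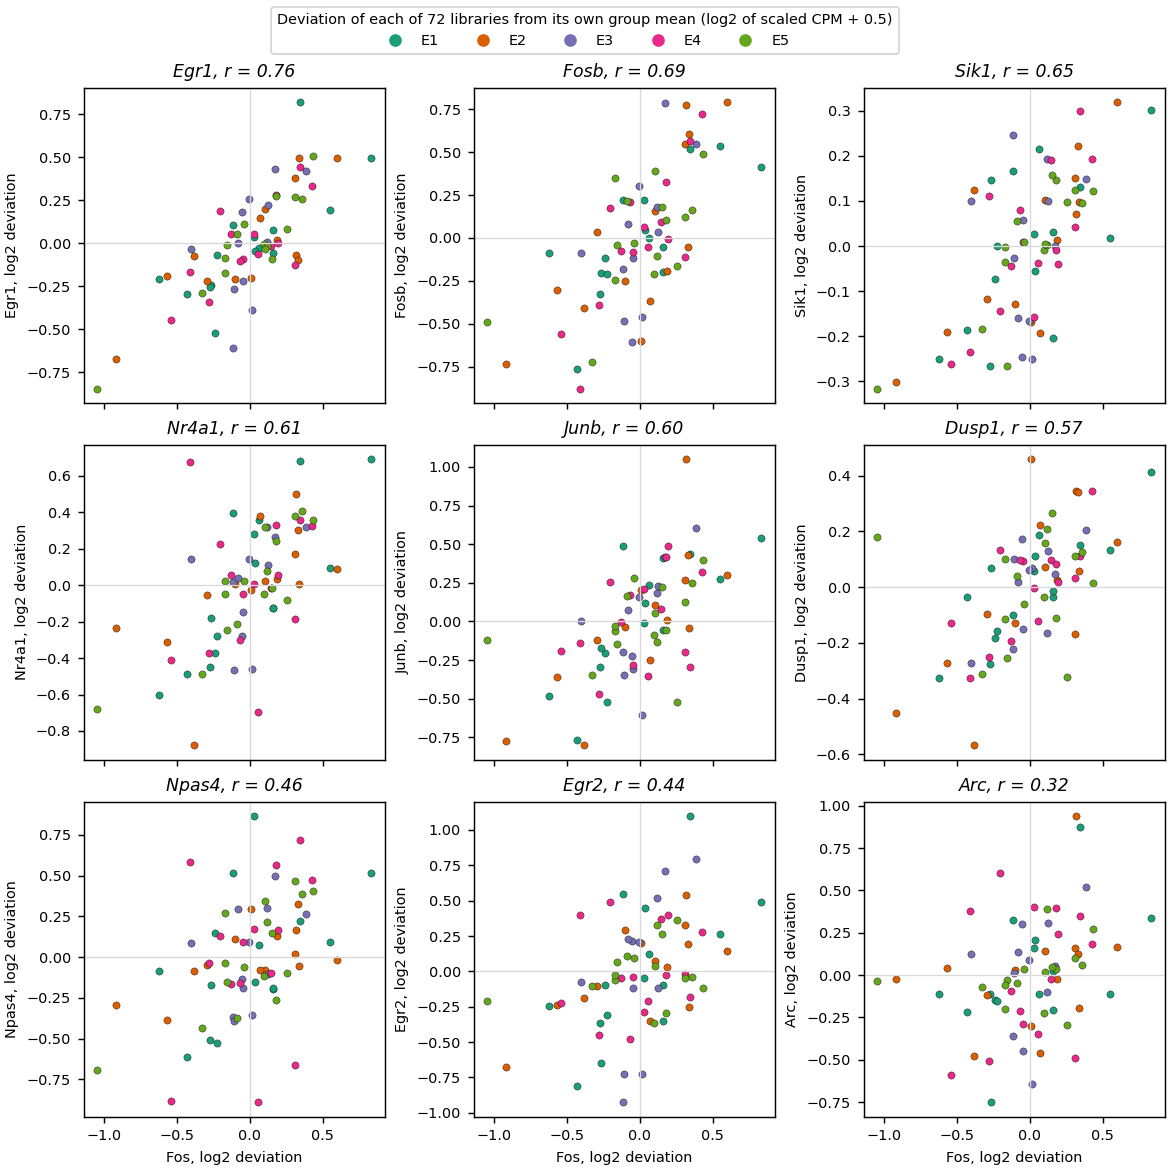
Deviation of each of the 72 libraries from the mean of its own group, in log2 of scaled CPM plus 0.5, for Fos (x axis) and each of the 9 other genes (y axis), coloured by line. Points rise from lower left to upper right, most tightly for Egr1 (r = 0.76) and least for Arc (r = 0.32).

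To place the 10 genes in their pathway, 5 further lists were counted in the fasting comparison of E1 and E3. Of 20 other rapid response transcription factors tested, 2 rose, the AP-1 subunit Jund by 0.36 and Klf6 by 0.26 on the log2 scale, and Nfil3 fell by 0.24, with a median of 0.04. Of 21 rapid feedback regulators, 9 rose and 0 fell, with a median of 0.21, where 17.9% of all genes tested rose. They include Errfi1 (0.45), an inhibitor of the EGF receptor, Gadd45g (0.49), Trib1 (0.36) and Per1 (0.34). Of the brakes among the 10, Dusp1 has the same sign, whereas Sik1 fell by 0.20. The 9 became 4 with region lists as covariates and 1 in WT mice alone.

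Of 19 later activity effectors, such as secreted and synaptic proteins, 6 rose, among them Nrn1 (0.70), Rasgrp1 (0.57), Nptx2 (0.44) and Plat (0.41), and Sorcs3 fell by 0.27, with a median of 0.25. Those that rose numbered 7 with region lists as covariates and 3 in WT mice alone. Nrn1 was called in all 7 other alternatives, Plat in 6, and Nptx2, Rasgrp1 and Sorcs3 in 5. Of 26 upstream kinases and factors, 3 rose, Camk2a (0.40), Mapk3 (0.30) and Ppp3cb (0.24), and 6 fell, among them the CREB coactivator Crtc3 by 0.30, Elk3 by 0.28 and the kinases Sik3 and Sik2 by 0.22, with a median of -0.04, where 17.9% of all genes tested rose and 15.3% fell. The 6 became 3 with region lists as covariates and 1 in WT mice alone. Camk2a was called in 3 of the 7 other alternatives and in 11 of the 27 fits that left out 1 library, and with region lists it was at 0.00. All 16 glucocorticoid targets rose, with a median of 0.93, where 17.9% of genes rose; Cdkn1a rose by 1.86, Arrdc2 by 1.63, Sgk1 by 1.02 and Fkbp5 by 0.93. Errfi1 and Per1 stand both in that list and among the feedback regulators. Dusp1 is known from other tissues as a gene that glucocorticoids induce, and whether they bear on its change here was not tested. In E1 alone, 14 of 15 targets tested rose (median 0.85), where 20.5% of genes did, and Dusp1 was called higher. In E3 alone, 14 of 16 rose (median 1.01), where 6.93% did, and Dusp1 was not called. Over E1 and E3, the edgeR adjusted p of the genes named from these lists was 0.045 for Camk2a and at most 0.022 for the rest.

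**Figure D5:**
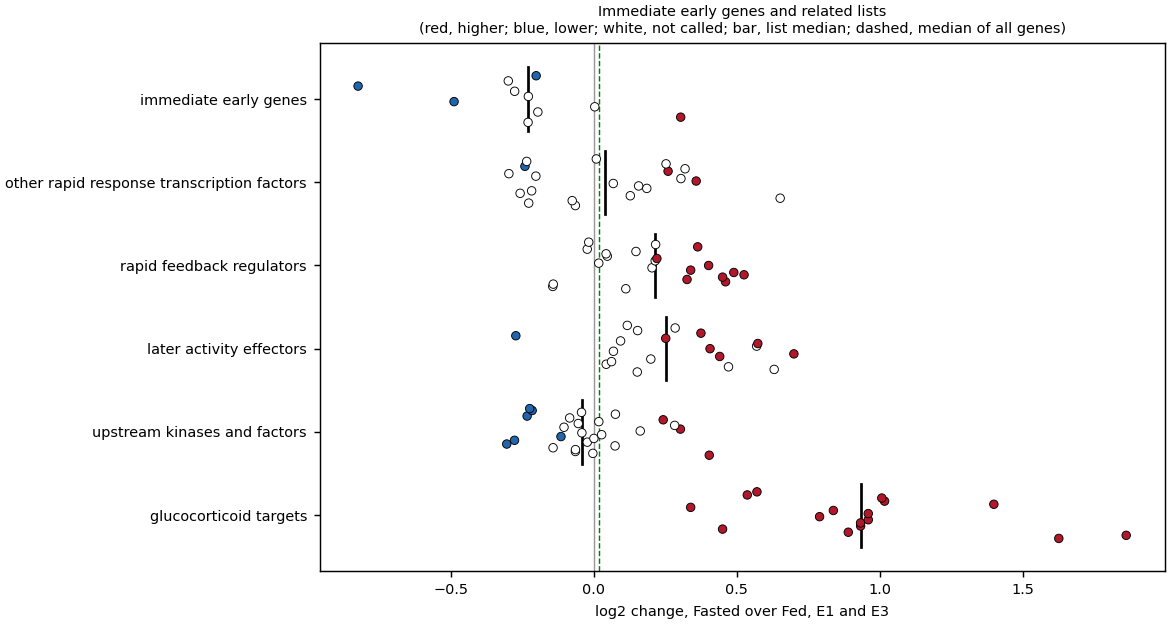
Log2 change, Fasted over Fed in E1 and E3 (x axis), of each gene in the 10 immediate early genes and 5 related lists; red points rose, blue fell and white were not called, bars are list medians and the dashed line the median of all genes (0.02). The immediate early genes have a median of -0.23 and the glucocorticoid targets one of 0.93.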

How the data were processed

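Total RNA of 72 hypothalamus libraries was sequenced. The authors deposited raw counts per Ensembl gene in 10 tables, made with HISAT2, Bowtie2 and the mm10 build per the submitters' processing notes; versions, the counting tool and its strand setting are not given in the sources used here, so reads antisense to a gene may be counted with it. The authors also deposited edgeR tables for 8 comparisons with log2 fold changes (WT over KO), p-values and adjusted p-values, used only where named. Symbols came from those tables, all columns were mapped to libraries (0 without a sample), and sequences came from RefSeq, GRCm38.p6.

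The deposited counts entered the quasi-likelihood test of edgeR 4.0.16 (R 4.3.3) after TMM scaling. Genes were kept by filterByExpr at its settings of 10 (min.count) and 15 (min.total.count), every fit covered all genes kept, and a gene was called where its p, adjusted by Benjamini-Hochberg over that fit, was below 0.05. Genotype was tested within a line and feeding state, fasting within and across E1 and E3 with line and genotype in the model. All 10 genes passed the filter in every comparison. Depth per library was 5517552 to 39999368 counts. Intervals are 95% intervals of the fit, and no 2 libraries of a group agreed within sampling noise (chi-square per gene of at least 2.88). Since the labels do not say that libraries come from separate animals, p-values measure the spread between these libraries only. Levels per kb used the exon union of the annotation. Deviations from group means used log2(scaled CPM + 0.5), with numpy 2.4.6 and scipy 1.17.1 in Python 3.11.15.

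The 10 genes and the related lists were chosen with earlier results of these data known. Named from a related list were up to 4 called genes per direction with the smallest p in the fasting comparison, and as genes like Fos the 10 with the highest r, predicted models left out. Genes named close to the threshold were chosen after their values were seen. Alternatives were RLE normalization, DESeq2 1.42.0, no filter, both feeding states in 1 model, 1 genotype alone, a replicate block, CPM of the library total and each library left out; fits without 13 libraries with transcripts of other tissues and with region lists as covariates were chosen after seeing the data. The replicate numbers did not pair the libraries: correlations of deviations between same-numbered libraries ran from -0.34 to 0.52. Only the edgeR fit at its main settings was run on simulated counts, for some of the comparisons and with the same dispersion for every gene. The alternatives and the permutation test were not simulated.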

Additional observations from a re-analysis of the deposited data

Results flagged for a closer look

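Single libraries stood apart from the rest of their group in 6 of 120 tests of a gene in a group of 4, which is the number chance gives at 1 in 20. Fosb was at 5.05 scaled CPM in Fasted E1 KO replicate 4, above the other 3, which lay between 2.87 and 3.07. Junb was at 4.85 scaled CPM in Fed E2 KO replicate 2, below its group, and at 9.40 scaled CPM in Fasted E5 KO replicate 3, above its group and close to the lowest Fasted E5 WT library, at 9.44 scaled CPM. Egr1 was at 34.0 scaled CPM in Fed E2 WT replicate 1, above its group. Arc was at 16.5 scaled CPM in Fed E1 KO replicate 2, above its group, in the library that also had the highest Fos level of all 72. Sik1 was at 24.8 scaled CPM in Fed E5 KO replicate 4, below its group, a library that was also low in Fos.

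Of these, E1 Fasted KO replicate 4 had a high sum of cortex and hippocampus markers and E5 Fasted KO replicate 3 a high sum of pituitary markers, and the part of either in the values was not tested.

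The change with fasting differed between lines for Arc, at -0.88 on the log2 scale for E3 minus E1, and for Dusp1, at -0.71. With 1 library left out, the difference of Arc was called in 11 of 27 fits and that of Dusp1 in 27 of 27.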

How the results depend on the processing

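Among the counts of members called, genotype in Fasted E5 gave 1 with DESeq2 in place of 0. Fasting in E1 and E3 gave 2 in wild types only and 1 in knockouts only, in place of 4. With cortex and striatum lists as covariates, fasting in E1 gave 0 in place of 2, E3 minus E1 gave 1 in place of 2, and feeding state gave 3 in E2, 2 in E4 and 0 in E5, in place of 5, 5 and 8. Without libraries with transcripts of other tissues, fasting in E3 gave 2 in place of 4, E3 minus E1 gave 1, and feeding state gave 0 in E2 and 3 in E4.

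Under the covariates 5 estimates changed sign: in E5 Fos was at 0.63, Egr1 at 0.55, Npas4 at 0.14 and Nr4a1 at 0.15, and in E1 Npas4 was at 0.16, with edgeR adjusted p between 0.18 and 0.97. The cause was not tested. Region lists themselves moved with feeding state in E1 and E5, so these fits cannot tell region content from feeding.

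With 1 library left out, counts were 2 to 7 for fasting in E1 and E3, 2 to 4 in E1, 2 to 5 in E3, 1 to 3 for E3 minus E1, 5 to 6 in E2, 4 to 6 in E4, 6 to 8 in E5, 3 to 4 for Fasted E5 over Fed E2, 0 to 1 for genotype in Fasted E2 and 0 in all other genotype and interaction comparisons. With a replicate block, fasting in E3 gave 5 members (Junb added, edgeR adjusted p = 0.048) and 1084 genes in place of 1704, and genotype gave 0 members in Fed and Fasted E3, Fed E4 and Fed E5; the block changed no other call of a member. The interaction in E3 called 0 genes with the block, in place of 202.

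Counts over all genes moved by more than 1.5 times under the covariates for fasting in E1 and E3 (3267 in place of 5060), fasting in E1 (1 in place of 6003), feeding state in E4 (5190 in place of 9097) and E5 (1221 in place of 11821), and Fasted E5 over Fed E2 (1574 in place of 5460). They did so without libraries with transcripts of other tissues for fasting in E3 (802 in place of 1704) and feeding state in E2 (2284 in place of 3730). Fasting in E1 and E3 called 1637 genes in wild types only and 3007 in knockouts only. The interaction in E3 called 1095 genes with DESeq2, 21 under the covariates and 0 without those libraries. For genotype, with 0 genes called, both feeding states in 1 model gave 605 in Fasted E3 and 4 in Fasted E2, no filter gave 169 in Fasted E4, and the covariates gave 33 in Fed E1, 24 in Fasted E4 and 12 in Fed E3. With 1 library left out, fasting in E3 called 785 to 2878 genes and genotype in Fasted E2 0 to 772. RLE normalization moved the median of all genes by at most 0.02, and DESeq2 put it at 0.10 for feeding state in E4. The relations of the 9 genes with Fos held under CPM of the library total.

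Groups of 3 or 4 libraries, genes at a few scaled CPM such as Egr2, and region content that varies between dissections limit all comparisons; batch covers feeding in E2, E4 and E5.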
